A study of Homo sapiens with 12 samples.

Results

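Doxycycline-treated Jurkat cells of a line labelled Hobit were compared with cells of the same line that received none, as 3 libraries labelled Dox+ and 3 labelled Dox-. These are 6 of the 12 libraries of the study, chosen by their labels, and 15148 of the 44389 genes in their table had a mean TPM of 1 or more and were tested. TPM is a length-normalised abundance in which every library is scaled to the same total, so levels can be compared between genes. Jurkat is an established human T cell acute lymphoblastic leukaemia line. The cells grew in RPMI with 10% FCS, with or without doxycycline at 1 ug/uL as the labels write it. That unit may be a misprint, and no other source used here gives the dose. RNA was isolated with a Qiagen RNeasy kit and sequenced after an NEBNext low-input preparation. The titles name the libraries Hobit-1, Hobit-2 and Hobit-3 with Dox+ or Dox-, the third Dox- title being spelled Hboit-3. The genotype label of these libraries reads only Dox+ or Dox-, so the construct, its promoter, the clonality of the line and the length of treatment are not known from them. The other 6 libraries, labelled ZNF683 and Mock, form a separate table and are used only for a contrast at the end.

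Hobit is the protein of ZNF683, a relative of the repressor Blimp-1 with zinc fingers, studied in resident memory T cells and natural killer cells. In doxycycline-inducible systems the drug lets a tetracycline-responsive activator switch on a transgene. Doxycycline itself is also known to slow translation on mitochondrial ribosomes. Several programmes described below are general stress responses. Hypoxia-inducible factor (HIF) drives glycolytic and hypoxia genes, ATF4 drives amino acid synthesis and uptake in the integrated stress response, and heat shock factor drives chaperone genes.

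ZNF683 was low in all 6 libraries. After median-of-ratios scaling, which divides each library by its median ratio to the gene-wise geometric mean, its level was 0.393, 0.675 and 0.505 scaled TPM in Dox+ libraries 1, 2 and 3. In Dox- libraries 1, 2 and 3 it was 0.199, 0.239 and 0.377 scaled TPM. Every Dox+ library lay above every Dox- library, by means of 0.524 ± 0.142 against 0.272 ± 0.0933 (SD, n = 3 each), and the exact two-sided permutation test gave p = 0.1, the smallest that 3 against 3 can give. With a mean of 0.434 TPM the gene lay under the level set for testing across genes. The labels do not say which part of the transcript the construct carries, so this level checks the labels only in part.

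The libraries were all T cell-like, but not alike. The summed level of 10 T cell markers, among them CD3D, CD3E, LCK and TRAC, was 5244, 4947 and 4950 scaled TPM in the Dox+ libraries and 4481, 2517 and 4408 scaled TPM in the Dox- libraries, lowest in Dox- 2. B cell markers summed to between 23.6 and 26.8 scaled TPM with doxycycline and to 21.2, 10.4 and 20.9 without it, mostly from CD79A. EPCAM, an epithelial marker, was at or near 0 throughout. All 5 epithelial markers, mostly KRT8, summed to 1.751, 1.643 and 1.598 scaled TPM in Dox+ 1, 2 and 3. In Dox- 1, 2 and 3 the epithelial sum was 2.553, 3.519 and 1.883 scaled TPM, highest in Dox- 2. On log2(scaled TPM + 1), Dox- 2 correlated with the other 5 libraries across genes at r = 0.900 to 0.916, and the others with each other at 0.975 to 0.991. In Dox- 1 a single non-coding RNA held 50.7% of all TPM. TPM keeps no record of sequencing depth, so depth is unknown and no counting interval can be given. In bulk RNA, fewer cells of a type and less RNA per cell cannot be told apart. Because Dox- 1 and Dox- 2 stand apart, each Dox- library is described by itself, and Dox- 3 is given beside every result.

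No gene passed the test across genes. With limma on log2(scaled TPM + 1), 0 of 15148 genes (0%) had a Benjamini-Hochberg adjusted p under 0.05, and 469 had an unadjusted p under 0.05. The smallest adjusted p was 0.118, for AC010619.2. On the TPM as deposited, without the scaling, limma called 60 genes, of which 19 were higher and 41 lower with doxycycline. With a weight for each library, which gave Dox- 2 a weight of 0.0779 and Dox+ 2 one of 6.53, limma called 1093 genes, 439 higher and 654 lower with doxycycline. The weights did not reach full numerical convergence. All folds below are therefore given as values, and "higher" or "lower" in them does not stand for a passed test. Each gene named below that was tested had a limma adjusted p of 0.754 or more, AC010619.2 apart.

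Dox- 1 stood above the Dox+ libraries in many transcripts with very long runs of A or T, although most of its higher genes held no such run. It lay above the whole Dox+ range and at least 1 log2 above the Dox+ mean for 252 genes (1.66%), and below by as much for 74 (0.489%), of which 90 and 4 were protein-coding. The leading transcript was AL135790.1, a long intergenic non-coding RNA at chr9:10631750-10632203 on the minus strand of GRCh38. Its transcript in GENCODE is shown because this RNA held a large share of Dox- 1, with its run of 38 T, at bases 93 to 130 of 157, in capitals:
AL135790.1: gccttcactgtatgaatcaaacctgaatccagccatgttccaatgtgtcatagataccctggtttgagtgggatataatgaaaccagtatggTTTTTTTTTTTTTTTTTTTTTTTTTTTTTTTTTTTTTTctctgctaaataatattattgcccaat
AL135790.1 stood at 79530, 91270 and 58630 scaled TPM in Dox+ 1, 2 and 3, and at 872300, 127000 and 56700 scaled TPM in Dox- 1, 2 and 3. Only Dox- 1 was far from the rest, and Dox- 3 was just under the lowest Dox+ library. As shares of the deposited TPM these were 9.20, 10.5 and 6.65% with doxycycline and 50.7, 12.8 and 6.80% without. The share of protein-coding genes ran the other way, at 83.1, 81.7 and 86.6% with doxycycline against 41.6, 74.9 and 85.6% without.

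The same held for other genes with such runs. Among the 14914 tested genes with a GENCODE match, the longest run of A or T in any transcript of the gene was counted. Of the 182 genes with a run of 30 or more, 67 (36.8%) were in the higher class of Dox- 1, against 1.77% of the 7981 genes with runs under 10 and 0.238% of the 2101 with runs of 15 to 19. Of the 243 higher genes of Dox- 1 with a run length, 85 had a run of 20 or more and 141 had runs under 10. With all genes of runs of 20 or more left out, an alternative added after seeing the data, 240 of the 326 genes higher or lower in Dox- 1 were left. In the class of 30 or more, 42 genes with runs of A (41.6%) and 25 of 81 with runs of T (30.9%) were higher. Genes of 30 or more were in the higher class in 16.5% in Dox- 2, where all classes lay between 10.9 and 16.5%, and in none of the 182 in Dox- 3. The median difference of the class of 30 or more was 0.41 log2 in Dox- 1, 0.50 in Dox- 2 and 0.01 in Dox- 3. For runs under 10 the medians were -0.04, -0.03 and 0.01 log2. By the median, genes with the longest runs were thus higher in Dox- 2 as well, and not in Dox- 3. Of the TPM as deposited, other genes with runs of 20 or more together held 9.54% in Dox- 1 and 10.1 to 10.6% in the rest. AL135790.1 took 50.7% of Dox- 1 on that measure, which lowers the share of all other genes there. These shares therefore do not show that the other genes with such runs were unchanged in Dox- 1.

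**Figure D1:**
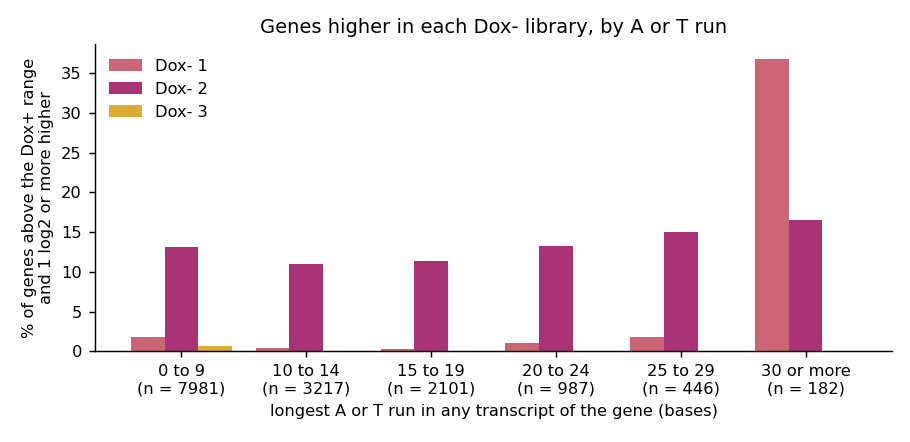
Share of genes above the Dox+ range and at least 1 log2 above the Dox+ mean (y, %) in each Dox- library, by the longest run of A or T in any transcript of the gene (x, bases, with the number of genes). The class of 30 or more stands out in Dox- 1 at 36.8%, while Dox- 2 lies between 10.9 and 16.5% in every class. The median differences of that class, not drawn, were 0.41 log2 in Dox- 1, 0.50 in Dox- 2 and 0.01 in Dox- 3.

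STAG2, a cohesin subunit gene, is an example, with a run of 41 A in 1 transcript. Its level was 301.9, 323.6 and 231.3 scaled TPM with doxycycline and 3647, 556.3 and 272.3 scaled TPM in Dox- 1, 2 and 3. BTBD9, with a run of 36 T, stood at 73.8, 72.3 and 56.0 scaled TPM with doxycycline and at 891, 122 and 65.4 without. Both were higher in Dox- 1 and, less so, in Dox- 2, and within the Dox+ range in Dox- 3. MSX1, a homeobox factor gene with a run of 36 A, and FBXL18, an F-box protein gene with one of 33 A, were also among the 4 genes by which Dox- 1 stood furthest above the next Dox- library. MSX1 was at 16.8, 17.4 and 12.3 scaled TPM with doxycycline and at 168, 21.5 and 13.1 without. FBXL18 was at 5.07, 6.35 and 6.64 scaled TPM with doxycycline and at 73.9, 9.34 and 7.83 without, so that Dox- 2 and Dox- 3 also lay above its Dox+ range. Among genes lower in Dox- 1 alone was ISG15, an interferon-induced ubiquitin-like protein, at 120, 124 and 163 scaled TPM with doxycycline and 72.3, 135 and 128 without.

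Dox- 2 held most of the difference between the groups. It lay at least 1 log2 above the Dox+ libraries for 1939 genes (12.8%) and below for 1356 (8.95%), and the SD of its differences from the Dox+ mean over all genes was 0.897 log2, against 0.395 in Dox- 1 and 0.253 in Dox- 3. Its leading genes were inducible chaperones. HSPA6, a stress-induced HSP70, was at 0.162, 0.159 and 0.310 scaled TPM with doxycycline and at 0.195, 638 and 0.285 scaled TPM in Dox- 1, 2 and 3. HSPA1B, the major inducible HSP70, was at 5.39, 5.16 and 7.15 scaled TPM with doxycycline and at 5.08, 563 and 5.80 without. Dox- 2 was the only library in which either left the level of the rest. HSPA1B and its near-identical neighbour HSPA1A share reads, so the split between them, 563 against 37.0 scaled TPM in Dox- 2, is uncertain.

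Of the 24 heat shock genes tested, 16 were above the Dox+ range in Dox- 2, where 43.0% of all genes were. By 1 log2 or more 11 were above, against 12.8% of all genes, and the median was 0.83 log2 against 0.02 over all genes. None of the 24 was on the same side in all 3 Dox- libraries. DNAJB1, the HSP40 partner of HSP70, was at 156, 182 and 235 scaled TPM with doxycycline and at 135, 2911 and 191.2 without. HSP90AA1, the inducible HSP90, was at 434, 370 and 437 scaled TPM with doxycycline and at 414, 6351 and 475 without. CRYAB, a small heat shock protein, was at 0.0103, 0 and 0.0403 scaled TPM with doxycycline and at 0.0111, 25.5 and 0.123 without. In all of them Dox- 2 lay far above the other 5 libraries.

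The promoters of the HSP70 genes are printed because these genes mark Dox- 2. They are the 250 bases before the start in the RefSeq table of GRCh38.p14, 5′ to 3′ on the gene's strand, HSPA6 from chr1:161524290-161524539 (plus) and HSPA1B from chr6:31827488-31827737 (plus). Capitals mark the heat shock element core searched on both strands, GAANNTTC or TTCNNGAA, each its own reverse complement:
HSPA6: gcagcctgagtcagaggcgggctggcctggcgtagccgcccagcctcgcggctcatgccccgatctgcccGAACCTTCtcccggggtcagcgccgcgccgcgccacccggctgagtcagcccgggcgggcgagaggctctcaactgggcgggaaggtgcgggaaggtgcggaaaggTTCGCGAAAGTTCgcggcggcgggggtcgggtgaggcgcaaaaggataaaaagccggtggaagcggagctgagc
HSPA1B: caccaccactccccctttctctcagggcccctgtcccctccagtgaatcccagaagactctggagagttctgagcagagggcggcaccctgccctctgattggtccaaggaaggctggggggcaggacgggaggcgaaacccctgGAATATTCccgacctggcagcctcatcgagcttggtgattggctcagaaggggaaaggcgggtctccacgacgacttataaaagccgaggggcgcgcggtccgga
HSPA6 held 3 such matches, starting 180, 74 and 69 bases before its start, and HSPA1B held 1, at 105. Of 21 heat shock genes with a promoter there, 9 (42.9%) held a match, as did 11.7% of all 27303 promoters and 8.66% of those of tested genes. A match describes letters and shows no binding.

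Other stress genes were highest in Dox- 2 by far. PPP1R15A, the GADD34 subunit that reverses eIF2alpha phosphorylation, was at 9.45, 11.4 and 11.4 scaled TPM with doxycycline and at 9.87, 335 and 10.8 without. DDIT3, the CHOP transcription factor, was at 16.6, 12.5 and 13.6 scaled TPM with doxycycline and at 21.6, 171 and 18.4 without, so that here Dox- 1 and Dox- 3 also lay above the Dox+ range. The 17 immediate early genes had a median of 1.44 log2 in Dox- 2, against -0.02 in Dox- 1 and -0.11 in Dox- 3. GADD45B, a stress-inducible growth arrest gene, stood at 4.49, 4.86 and 4.89 scaled TPM with doxycycline and at 6.07, 139 and 5.30 without, and JUN, an AP-1 subunit, at 3.98, 4.27 and 4.70 against 3.19, 54.7 and 3.27. MALAT1, a nuclear non-coding RNA, was at 5730, 8604 and 4937 scaled TPM with doxycycline and 6989, 41940 and 5691 without.

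Genes of other tissues appeared in Dox- 2 as well. COL1A1, a fibroblast collagen, was at 0.763, 0.773 and 0.866 scaled TPM with doxycycline and at 0.538, 17.0 and 0.937 without. HBA1 was at 1.17, 0.242 and 1.33 scaled TPM with doxycycline and at 0.303, 19.6 and 0.913 without, and HBA2, its near-identical copy, at 14.8 scaled TPM in Dox- 2. Summed over their lists, erythroid markers came to 35.2 and fibroblast markers to 18.1 scaled TPM in Dox- 2, against at most 1.57 and 1.32 in the other 5 libraries. Nearly all of this came from HBA1 and HBA2 and from COL1A1. The erythroid enzyme gene ALAS2 was at 0.106 scaled TPM in Dox- 2 and at 0 to 0.245 elsewhere, the collagen gene COL1A2 at 0.0829 against 0.0171 to 0.0327, and LUM, lumican, at 0 in Dox- 2. The part of such markers in the other differences of Dox- 2 was not tested. On the low side, the genes furthest below the other libraries in Dox- 2 included CABCOCO1, a ciliary protein, and IGLL1, a surrogate light chain. CABCOCO1 was at 54.6, 59.3 and 61.0 scaled TPM with doxycycline and at 54.8, 4.30 and 50.1 without. IGLL1 stood outside the rest in the same way, at 5.69 in Dox- 2 against 51.5 to 65.2 scaled TPM.

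Cytosolic ribosomal protein genes, which encode the translation machinery, stood above the Dox+ range in Dox- 2 for 72 of 77 members. Among all genes the share was 43.0%, and the median of these 77 was 0.44 log2. In Dox- 1 and Dox- 3 their medians were 0.04 and -0.05 log2, and 0 of 77 were on the same side in all 3. Histone genes had medians of -0.06, 1.17 and 0.05 log2 in Dox- 1, 2 and 3. On the TPM as deposited 0 of 21 were above the Dox+ range in all 3, with 1 below. After scaling 5 of 21 were above in all 3, against 5.86% of all genes. Among these was H1-4, a linker histone gene at chr6:26156354-26157107, at 11.3, 6.74 and 6.11 scaled TPM with doxycycline and 17.8, 49.9 and 13.0 without. Hosts of snoRNAs had medians of 0.32, 1.08 and 0.04 log2.

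**Figure D2:**
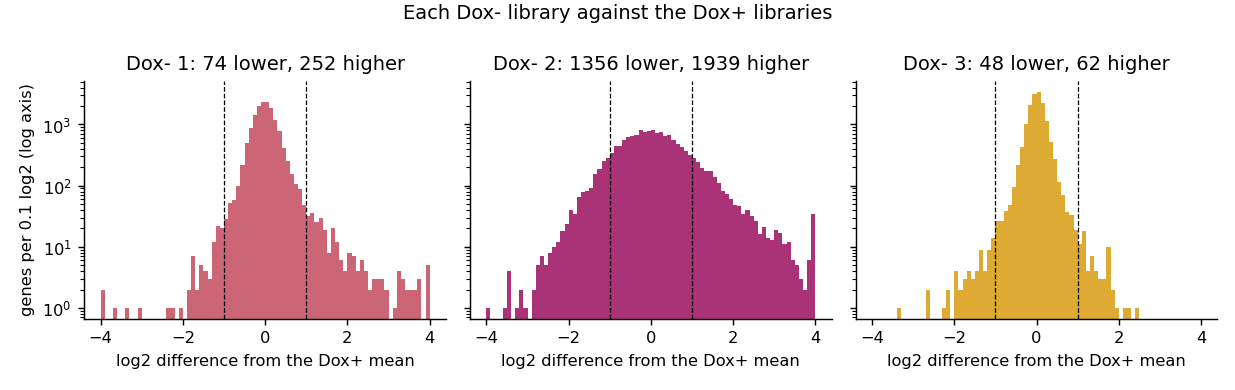
Number of genes (y, log axis, per 0.1 log2) by their log2 difference from the Dox+ mean (x), 1 panel for each Dox- library; dashed lines mark 1 log2, and differences beyond 4 are drawn in the end bins. Dox- 2 is the widest, with an SD of 0.897 log2, and Dox- 3 the narrowest, at 0.253.

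Dox- 3 was close to the Dox+ libraries. It lay at least 1 log2 above them for 62 genes (0.409%) and below for 48 (0.317%), of which 5 and 4 were protein-coding, and 37 and 24 were short RNAs. Of its 62 higher genes 40 (64.5%) were also in the higher class of Dox- 2, where they made up 2.06%, and 18 (29.03%) in that of Dox- 1, where they made up 7.14%. Smaller differences went their own way in some groups. Genes of ribosome biogenesis, which build pre-ribosomes in the nucleolus, were above the Dox+ range for 23 of 29 in Dox- 3 (all genes, 22.8%). Their median was 0.36 log2 there, against -0.17 in Dox- 1 and -0.42 in Dox- 2. POLR1B, an RNA polymerase I subunit, stood at 11.5, 15.2 and 17.0 scaled TPM with doxycycline and at 12.01, 3.41 and 20.8 in Dox- 1, 2 and 3. MYBBP1A, a nucleolar protein, stood at 12.5, 14.3 and 18.2 against 10.9, 4.46 and 22.7 scaled TPM. In both, Dox- 3 was the highest library and Dox- 2 the lowest.

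All 6 MHC class I chains were below the Dox+ range in Dox- 3 (22.1% of all genes) and above it in Dox- 2 (43.0%). Their medians were -0.50 log2 in Dox- 3 and 0.78 log2 in Dox- 2. B2M, the light chain, was at 4274, 4697 and 4584 scaled TPM with doxycycline and at 4087, 5939 and 3350 without. B2M was thus highest in Dox- 2 and lowest in Dox- 3. TRBJ2-2, a T cell receptor joining segment, was among the genes highest in Dox- 3 alone, at 64.8 scaled TPM against 30.2, 31.7 and 37.2 with doxycycline and 20.4 and 5.55 in the other Dox- libraries.

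In all 3 Dox- libraries 887 genes (5.86%) lay above every Dox+ library and 881 (5.82%) below, 525 and 738 of them protein-coding. On the TPM as deposited the split was 135 above and 1198 below, since the median of all genes then lay 0.316 log2 higher with doxycycline, against 0.0018 after scaling. Few of these differences were large in the library nearest the Dox+ mean. With that library at least 1.5-fold away on the log2(scaled TPM + 1) scale, 55 genes remained above and 19 below, and at 1 log2, 14 and 4. The 14 held 3 protein-coding genes, AK4, CHAC1 and STC2, and the 4 held none. The rest were short RNAs, clone-named transcripts and a T cell receptor joining segment.

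HIF target genes were higher without doxycycline. Among 33 tested outside glycolysis, 12 were above the Dox+ range in all 3 Dox- libraries (of all genes 5.86% were) and 0 below, and the medians were 0.47, 0.68 and 0.09 log2 in Dox- 1, 2 and 3, against -0.002, 0.016 and 0.009 over all genes. In Dox- 3 alone 15 were above and 4 below, against 22.8 and 22.1% of all genes. Without the scaling 8 were above in all 3 and 1 below, with a median of -0.14 log2 (Dox+ minus Dox-) against -0.50 after scaling. AK4, a mitochondrial adenylate kinase at chr1:65147549-65232145, was at 2.54, 2.43 and 1.63 scaled TPM with doxycycline and at 15.5, 40.8 and 6.12 without, which is a difference of -2.42 ± 0.59 (log2 Dox+ minus Dox-, SE). The groups did not overlap, and Dox- 3 was the Dox- library nearest the Dox+ range. ADM, the vasodilator peptide adrenomedullin at chr11:10304680-10307397, was at 0.963, 0.651 and 0.365 scaled TPM with doxycycline and at 7.43, 23.1 and 2.23 without (-2.40 ± 0.67). BNIP3, a mitophagy receptor at chr10:131966455-131982013, was at 39.9, 39.6 and 30.7 scaled TPM with doxycycline and at 118, 185 and 58.1 without (-1.54 ± 0.39). In each the order of the Dox- libraries was the same, Dox- 2 highest and Dox- 3 nearest to the Dox+ libraries. BHLHE40, a circadian and hypoxia-responsive repressor, was at 1.319, 1.221 and 0.848 against 5.72, 17.3 and 1.39 scaled TPM, so that Dox- 3 only just cleared the Dox+ range. ANKRD37 was at 7.28, 7.13 and 6.97 against 13.9, 27.3 and 10.1 scaled TPM. Of the 5 HIF regulators 0 were on 1 side in all 3. HIF1A itself was at 56.7, 59.1 and 55.5 scaled TPM with doxycycline and at 60.2, 57.4 and 49.0 without, with the groups overlapping. MIR210HG, the host transcript of the hypoxia-responsive miR-210 at chr11:565660-568457, was at 3.66, 2.32 and 1.43 scaled TPM with doxycycline and at 10.1, 4.61 and 4.88 without (-1.09 ± 0.35), here with Dox- 1 highest.

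**Figure D3:**
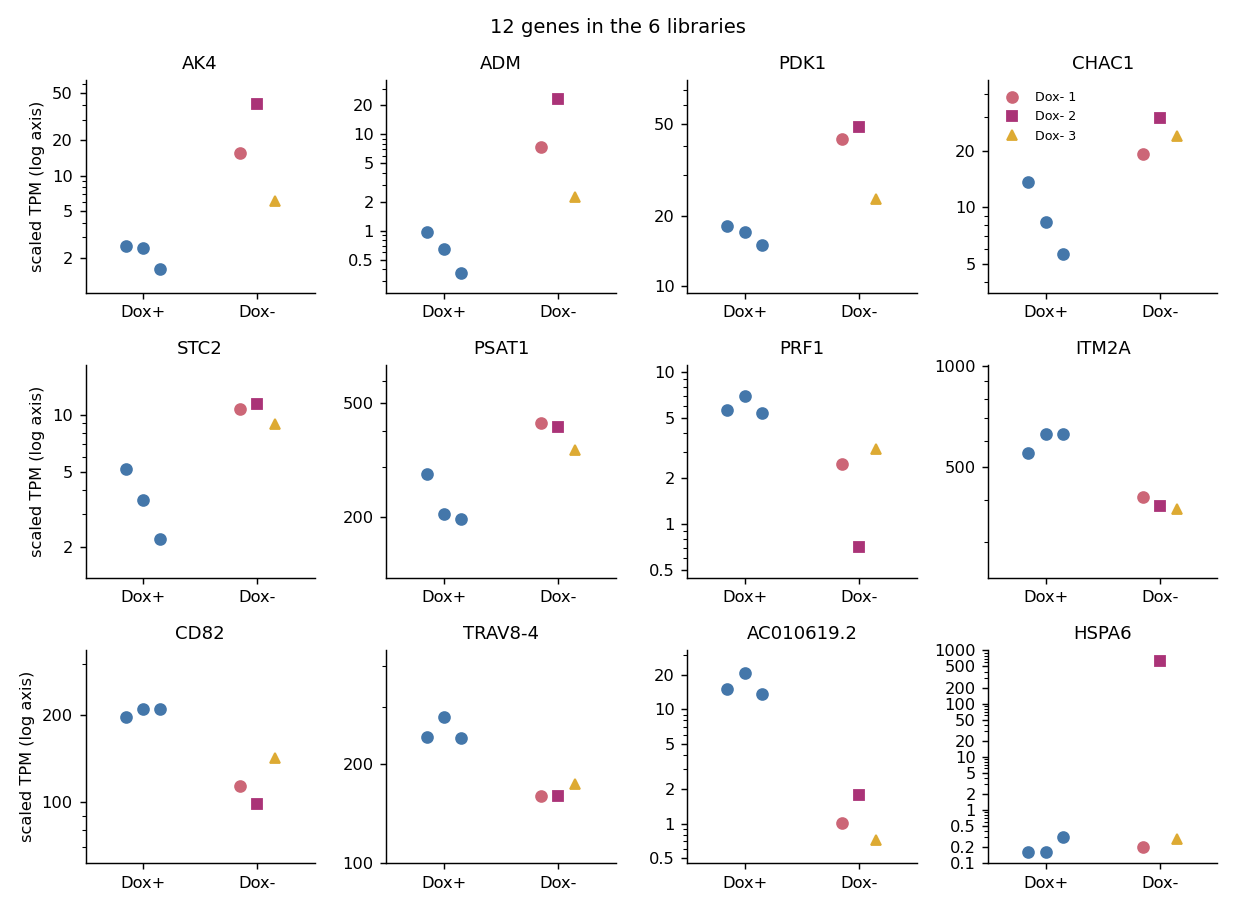
Scaled TPM (y, log axis) of selected genes in each Dox+ and Dox- library (points). AK4 and ADM lie higher in all 3 Dox- libraries, most so in Dox- 2, PRF1 lies lower in all 3, and HSPA6 differs in Dox- 2 only.

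Glycolytic genes showed the same direction. Of 25 tested, 14 were above the Dox+ range in all 3 Dox- libraries (5.86% of all genes) and 0 below. Their medians were 0.39, 1.18 and 0.27 log2, and in Dox- 3 alone 19 were above (22.8% of all genes) and 0 below. Without the scaling only 2 were above in all 3 and 0 below, and the median was -0.21 log2 (Dox+ minus Dox-) against -0.57 after scaling. PFKFB4, which sets the level of the glycolytic activator fructose 2,6-bisphosphate, was at 4.86, 4.98 and 4.27 scaled TPM with doxycycline and at 14.6, 20.7 and 7.17 without (-1.30 ± 0.35). PDK1, the kinase that turns off pyruvate dehydrogenase, was at 18.1, 17.0 and 14.95 scaled TPM with doxycycline and at 43.0, 48.4 and 23.7 without (-1.10 ± 0.27). Neither had overlapping groups. LDHA, lactate dehydrogenase, was at 629, 628 and 687 scaled TPM with doxycycline and at 1017, 2415 and 825 without. ENO1, enolase, was at 711, 738 and 914 against 1125, 3442 and 1099 scaled TPM. HK2, the inducible hexokinase, was at 4.31, 5.03 and 4.26 against 9.03, 9.91 and 6.20. In these enzymes Dox- 3 was again the Dox- library nearest the Dox+ range.

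The promoters of AK4, MIR210HG and BNIP3 are printed because these HIF-responsive genes lay higher in all 3 Dox- libraries. They are taken from the RefSeq table of GRCh38.p14, 5′ to 3′ on the gene's strand. AK4 is chr1:65147302-65147551 (plus) and MIR210HG chr11:568458-568707 (minus), each the 250 bases before the start. BNIP3 is chr10:131982014-131982093 (minus), 80 bases that hold its matches. Capitals mark the hypoxia response element core, ACGTG or GCGTG on either strand (CACGT or CACGC on the other), with CACGTG counted as 2 overlapping matches:
AK4: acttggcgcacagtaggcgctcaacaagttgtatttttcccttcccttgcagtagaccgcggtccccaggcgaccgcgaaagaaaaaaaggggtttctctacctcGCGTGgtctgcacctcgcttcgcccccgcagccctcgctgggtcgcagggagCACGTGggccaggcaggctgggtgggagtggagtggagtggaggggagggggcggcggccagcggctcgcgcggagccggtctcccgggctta
MIR210HG: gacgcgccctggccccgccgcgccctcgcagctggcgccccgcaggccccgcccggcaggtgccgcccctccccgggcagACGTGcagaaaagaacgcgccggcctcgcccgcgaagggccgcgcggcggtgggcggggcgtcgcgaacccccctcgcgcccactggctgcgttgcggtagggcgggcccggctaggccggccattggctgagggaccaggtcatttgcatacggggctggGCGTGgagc
BNIP3: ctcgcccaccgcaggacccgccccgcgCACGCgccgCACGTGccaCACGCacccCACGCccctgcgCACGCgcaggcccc
AK4 held 3 matches, starting 145, 93 and 92 bases before its start, MIR210HG 2, at 170 and 9, and BNIP3 6, at 143, 134, 133, 125, 116 and 104. Of 25 HIF targets with a promoter there, 20 (80%) held a match, as did 13 of 23 glycolytic genes (56.5%), 58.1% of tested genes and 43.1% of all promoters. Among genes above in all 3 Dox- libraries the share was 59.1%, and among those below it was 54.8%, both near that of tested genes.

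Genes of the integrated stress response were also higher without doxycycline. Of 19 tested, 9 were above the Dox+ range in all 3 Dox- libraries and 1 below, against 5.86 and 5.82% of all genes. The medians were 0.42, 1.26 and 0.11 log2 in Dox- 1, 2 and 3. In Dox- 3 alone 9 were above and 1 below, against 22.8 and 22.1% of all genes. Among 7 targets, 6 were above in all 3 and 1, NDRG2, below, while 0 of the 4 eIF2alpha kinases were on 1 side. As deposited, 1 of the 19 was above in all 3 and 1 below, and the median was -0.42 log2 (Dox+ minus Dox-) against -0.77 after scaling. CHAC1, a glutathione-degrading enzyme at chr15:40952962-40956519, was at 13.6, 8.33 and 5.62 scaled TPM with doxycycline and at 19.1, 29.8 and 24.02 without (-1.37 ± 0.31). STC2, the secreted glycoprotein stanniocalcin 2 at chr5:173314713-173329503, was at 5.17, 3.56 and 2.21 scaled TPM with doxycycline and at 10.8, 11.4 and 8.95 without (-1.34 ± 0.27). Unlike AK4, ADM and BNIP3, CHAC1 in Dox- 3 lay between Dox- 1 and Dox- 2, and STC2 differed little among the 3. VLDLR, a lipoprotein receptor, was at 17.3, 10.2 and 7.95 scaled TPM with doxycycline and at 27.5, 34.3 and 20.4 without. SESN2, a leucine-sensing inhibitor of mTORC1, was at 8.05, 5.38 and 4.80 against 9.60, 15.6 and 12.3 scaled TPM. TRIB3, a pseudokinase that feeds back on ATF4, was at 22.6, 19.4 and 22.0 against 29, 61.6 and 28.4. In these genes Dox+ 1 was the highest Dox+ library. ATF4 itself overlapped between the groups, at 160, 93.3 and 97.3 scaled TPM with doxycycline and 137, 171 and 115 without.

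Genes of amino acid synthesis and uptake were higher in Dox- 1 and Dox- 3. Of 18 genes tested 6 were above in all 3 (5.86% of all genes) and 0 below. The medians were 0.48, 0.003 and 0.40 log2 in Dox- 1, 2 and 3. In Dox- 3, 15 were above the Dox+ range (22.8% of all genes) and 0 below. In the unscaled TPM 0 were above in all 3, and the median group difference (Dox+ minus Dox-) turned from -0.22 to 0.13 log2, where that of all genes was 0.316. PSAT1, the serine pathway transaminase at chr9:78297143-78330093, was at 283, 205 and 196 scaled TPM with doxycycline and at 426, 412 and 343 without (-0.80 ± 0.18). SLC3A2, the heavy chain of amino acid exchangers, was at 165, 143 and 148 scaled TPM with doxycycline and at 256, 379 and 204 without (-0.83 ± 0.23). SLC7A11, its cystine-importing partner, was at 0.874, 0.688 and 0.384 against 1.65, 5.15 and 1.93 scaled TPM. Neither SLC3A2 nor SLC7A11 overlapped between the groups. ASNS, asparagine synthetase at chr7:97852118-97872542, did overlap, at 36.5, 21.5 and 16.9 scaled TPM with doxycycline and 72.4, 104 and 29.9 without (-1.33 ± 0.48). GPT2, a mitochondrial alanine transaminase, was at 7.97, 5.50 and 4.35 against 12.1, 11.2 and 11.3 scaled TPM (-0.88 ± 0.22), with the 3 Dox- libraries close together.

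Cytosolic aminoacyl-tRNA synthetases, several of which are ATF4 targets, were above in all 3 Dox- libraries for 9 of 18 and below for 0. Among all genes the shares were 5.86 and 5.82%. Their medians were 0.30, 0.12 and 0.31 log2. In Dox- 3, 16 were above and 1 below, against 22.8 and 22.1% of all genes. On the TPM as deposited 0 were above in all 3, and the median group difference (Dox+ minus Dox-) turned from -0.22 to 0.15 log2, so that the higher level without doxycycline holds only relative to all genes. GARS1, for glycine, was at 161, 138 and 149 scaled TPM with doxycycline and at 218, 204 and 216 without (-0.51 ± 0.12), so that the Dox- libraries differed less among themselves than from the Dox+ range. SARS1, for serine, was at 176, 163 and 168 against 224, 351 and 204 scaled TPM (-0.57 ± 0.21). AARS1, for alanine, was at 91, 82.1 and 77.0 against 105, 158 and 96.6, with Dox- 3 nearest the Dox+ range.

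Short stretches of the CHAC1 and ASNS promoters are printed because each holds the one match to the ATF4-type element searched, TGATGNAA (TTNCATCA on the other strand), in capitals. They are from the RefSeq table of GRCh38.p14, CHAC1 at chr15:40953251-40953280 (plus) and ASNS at chr7:97872458-97872487 (minus), 30 bases each:
CHAC1: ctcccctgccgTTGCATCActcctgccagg
ASNS: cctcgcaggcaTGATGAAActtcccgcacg
The match started 209 bases before the RefSeq start in CHAC1 and 68 in ASNS. Both stretches lie inside the gene positions given above, which are from GENCODE and begin further upstream. It was found in 3 of 18 integrated stress response promoters (16.7%), 2 of 13 of amino acid synthesis (15.4%) and 2 of 14 of the synthetases (14.3%), against 1.35% of tested genes and 3.19% of all promoters. Among genes above in all 3 Dox- libraries 15 of 462 (3.25%) held it, and among those below 8 of 626 (1.28%).

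KLF15, a metabolic transcription factor, was also among the 12 genes furthest above, at 2.12, 1.32 and 0.726 scaled TPM with doxycycline and 5.88, 19.99 and 3.29 without (-1.88 ± 0.57). Of 23 genes of the unfolded protein response of the endoplasmic reticulum, 1 was above and 1 below in all 3, and p53 targets had 0 of 10 on either side. Among all genes 5.86% were above and 5.82% below.

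T cell receptor genes were lower without doxycycline. Of 30 tested, 12 were below every Dox+ library in all 3 Dox- libraries and 1 above, with medians of -0.15, -0.82 and -0.14 log2 in Dox- 1, 2 and 3. Among all genes 5.82% were below in all 3. In Dox- 3 alone 16 were below and 3 above, against 22.1 and 22.8% of all genes. CD3D, a signalling chain of the receptor, was at 1046, 1065 and 1091 scaled TPM with doxycycline and at 771, 518 and 796 without. TRAC, the alpha chain constant region, was at 241, 271 and 241 scaled TPM with doxycycline and at 184, 141 and 177 without. TRAV8-4, the alpha variable segment among the 12 genes furthest below, at chr14:21894433-21895030, was at 243, 280 and 240 against 160, 160 and 174 scaled TPM (0.62 ± 0.12). In all of these Dox- 3 lay below the Dox+ range by about as much as Dox- 1. LCP2, the adaptor SLP-76, was at 106, 118 and 102 against 81.3, 37.8 and 84.1 scaled TPM. TRAT1, a receptor-associated transmembrane adaptor, was at 68.7, 84.2 and 91.9 against 57.6, 12.7 and 67.1, where Dox- 3 lay just under the lowest Dox+ library. The member above was THEMIS, a signalling protein of T cell selection, at 40.9, 43.9 and 41.9 against 58.3, 46.2 and 45.9 scaled TPM, although its group difference changed sign on the TPM as deposited.

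Other T cell surface receptors were below in all 3 for 6 of 15 and above for 0, against 5.82 and 5.86% of all genes. On the TPM as deposited the counts were 9 and 0. In Dox- 3, 11 were below and 1 above, against 22.1 and 22.8% of all genes. CD2, an adhesion receptor, was at 249, 291 and 258 scaled TPM with doxycycline and at 218, 71.5 and 176 without (0.92 ± 0.39). CD7 was at 52.7, 49.3 and 56.6 against 38.4, 35.1 and 46.1 scaled TPM. CD82, a tetraspanin that organises surface receptors, at chr11:44564427-44620363, was at 197, 210 and 210 scaled TPM with doxycycline and at 114, 98.8 and 143 without (0.81 ± 0.16). ITM2A, a membrane protein of activated and developing T cells at chrX:79360384-79367667, was at 552, 629 and 629 scaled TPM with doxycycline and at 407, 384 and 376 without (0.63 ± 0.12). CD82 and ITM2A did not overlap between the groups, and in ITM2A Dox- 3 was the lowest library of all. Among 20 lymphoid and leukaemia factors 5 were below in all 3 and 1 above, against 5.82 and 5.86% of all genes. GATA3, a T lineage transcription factor, was at 68.0, 68.0 and 64.0 scaled TPM against 50.3, 45.7 and 51.7. LEF1, a Wnt pathway factor of T cell development, was at 1138, 1188 and 1065 against 1057, 644 and 914 scaled TPM. LMO1, a T cell leukaemia oncogene, stood the other way, at 5.71, 5.35 and 5.85 against 9.81, 8.72 and 7.56.

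Genes of cytotoxic granules, the effector machinery of killer lymphocytes, were below in all 3 Dox- libraries for 7 of 14 and above for 1. Among all genes the shares were 5.82 and 5.86%. On the TPM as deposited the counts were 4 and 0. Medians were -0.16, -0.65 and -0.07 log2 in Dox- 1, 2 and 3, so the shift was largest in Dox- 2 and small in Dox- 3. In Dox- 3 alone 8 were below and 2 above, against 22.1 and 22.8% of all genes. PRF1, the pore-forming protein perforin at chr10:70597348-70602775, was at 5.69, 7.001 and 5.42 scaled TPM with doxycycline and at 2.49, 0.710 and 3.11 without (1.27 ± 0.34). CTSW, a cathepsin of cytotoxic cells, was at 13.6, 18.1 and 14.9 scaled TPM with doxycycline and at 8.86, 8.43 and 12.1 without (0.62 ± 0.19). Neither overlapped between the groups, and Dox- 3 was the nearest to the Dox+ libraries in both. GZMA, a granule protease, was the 1 above, at 12, 13.6 and 13.98 against 19.4, 18.8 and 16.5 scaled TPM. The residency genes, a programme Hobit is known for, had 1 of 10 above and 1 below in all 3, near the shares of all genes.

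Actin cytoskeleton genes were below in all 3 for 12 of 27 and above for 1, against 5.82 and 5.86% of all genes. Their medians were -0.22, -0.49 and -0.18 log2. In Dox- 3, 17 were below and 1 above, against 22.1 and 22.8% of all genes. WAS, which drives actin branching in blood cells, was at 50.6, 54.8 and 60.6 scaled TPM with doxycycline and at 35.9, 23.3 and 47.1 without. EVL, an actin elongation factor, was at 181, 159 and 137 scaled TPM against 106, 63.0 and 105 (0.82 ± 0.23). In EVL, Dox- 1 and Dox- 3 were nearly equal and both below the lowest Dox+ library. Among other genes furthest below, ANXA2, a calcium-dependent membrane binder, was at 87.2, 229 and 92.1 against 69.2, 76.4 and 73.8 scaled TPM, so that much of its mean difference came from Dox+ 2. FAM156A was at 13.9, 16.5 and 11.99 against 4.43, 8.75 and 7.06 scaled TPM (1.00 ± 0.25). LARP6, an RNA-binding protein, was at 6.54, 6.30 and 6.12 scaled TPM with doxycycline and at 3.97, 3.38 and 3.81 without, with little spread in either group.

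Interferon response genes were below in all 3 for 10 of 40 and above for 1, against 5.82 and 5.86% of all genes. Their medians were -0.05, -0.31 and -0.08 log2. In Dox- 3, 20 were below and 5 above, against 22.1 and 22.8% of all genes. IRF1, an interferon-induced transcription factor, was at 91.5, 92.1 and 82.6 scaled TPM with doxycycline and at 68.8, 38.8 and 73.3 without. BST2, the virus-tethering protein tetherin, was at 54.5, 55.6 and 70.6 against 40.5, 28.8 and 52.4 scaled TPM. In both, every Dox- library was below every Dox+ library, with Dox- 2 lowest.

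Mitochondrial genes are given because doxycycline is known to slow mitochondrial translation, which RNA levels do not measure and which was not tested. Of 70 nuclear genes of oxidative phosphorylation 7 were below in all 3 Dox- libraries and 0 above, with medians of -0.15, -0.22 and -0.07 log2. Among all genes 5.82% were below and 5.86% above. The 15 mitochondrially encoded genes had 3 below and 1 above. MT-ATP8, a subunit of ATP synthase, was at 4081, 3842 and 3356 scaled TPM with doxycycline and at 2818, 2015 and 2676 without, and MT-ATP6, whose reading frame overlaps it, at 3473, 3199 and 2652 against 2361, 1029 and 2294. The 1 above, MT-ND6, was at 207, 235 and 170 against 292, 237 and 249 scaled TPM and changed sign on the TPM as deposited. Mitochondrial ribosomal protein genes were below in 2 of 78 and above in 0, with medians of -0.15, -0.28 and 0.08 log2.

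**Figure D4:**
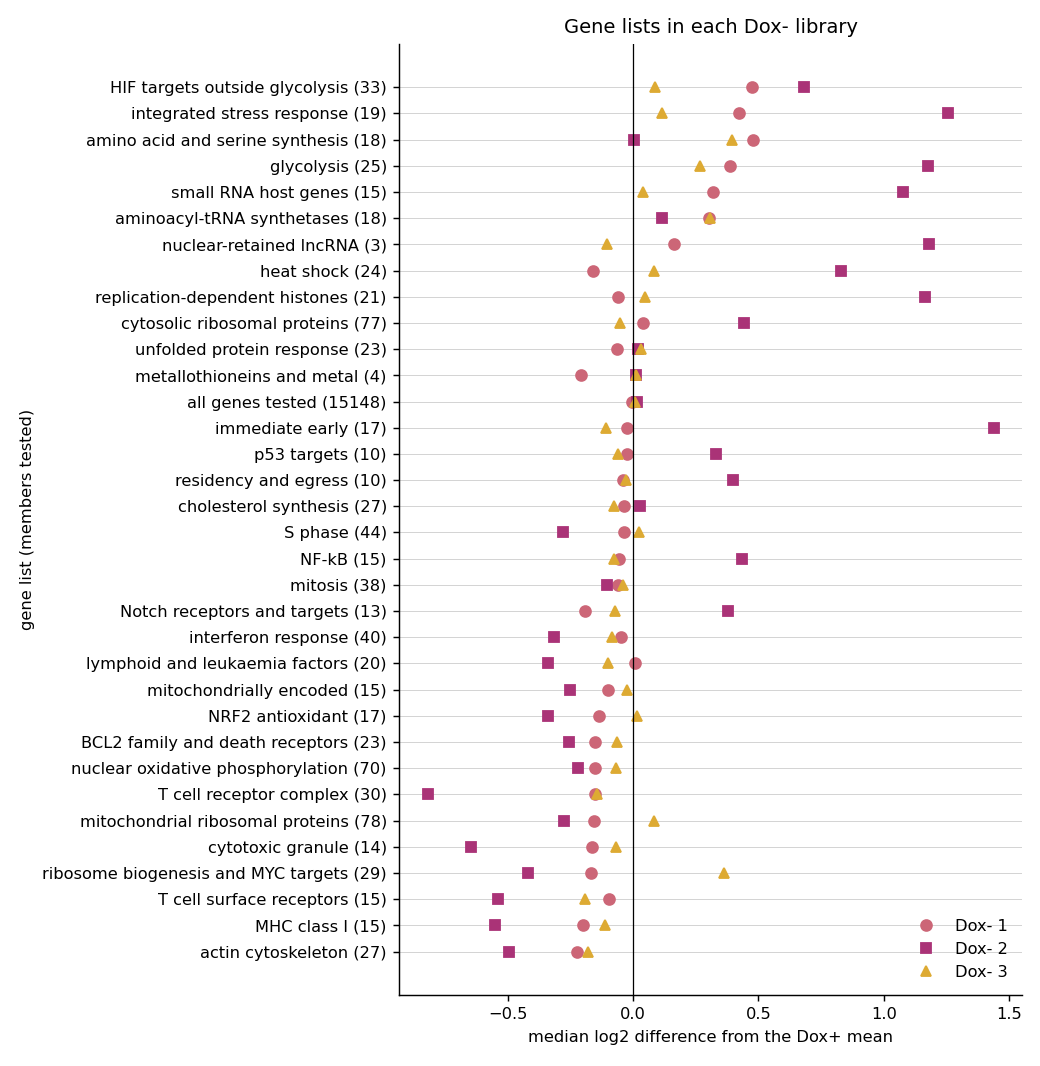
Median log2 difference of each Dox- library from the Dox+ mean (x) for the gene lists (y), with all genes tested for reference. HIF targets and glycolysis lie to the right in all 3 libraries, by 0.09 and 0.27 log2 in Dox- 3, and T cell receptor and actin genes to the left, by -0.14 and -0.18.

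The remaining lists are given by their counts above and below in all 3 Dox- libraries, where all genes had 5.86% above and 5.82% below. S phase genes had 0 of 44 above and 4 below, mitosis genes 1 of 38 above and 5 below, and genes of BCL2-type and other cell death 1 of 23 above and 4 below. NRF2 targets, which defend against oxidants, had 2 of 17 above and 2 below, cholesterol synthesis 1 of 27 and 2, Notch genes 1 of 13 and 1, and NF-kB genes 1 of 15 and 1. Immediate early genes had 1 of 17 above and 1 below, snoRNA hosts 1 of 15 and 1, and the whole MHC class I list 0 of 15 and 1. Metallothioneins had 0 of 4 and nuclear-retained non-coding RNAs 0 of 3 on either side.

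To see where the doxycycline comparison differed from the other one in the series, the effect of doxycycline was set against that of ZNF683 over Mock in a limma interaction over all 12 libraries, each effect within its own table. The labels of the other table give the genotype as Dox-induced ZNF683 or Mock, and do not say whether Mock cells received doxycycline. Only AC010619.2 passed, 1 of 14468 genes, with 510 at an unadjusted p under 0.05. AC010619.2 is a processed transcript at chr19:49474586-49487637 and was at 14.9, 20.6 and 13.5 scaled TPM with doxycycline and at 1.01, 1.78 and 0.726 without, a difference of 3.01 ± 0.25 on log2(scaled TPM + 1). In the other table it was at 14.6, 22.5 and 16.6 scaled TPM with ZNF683 and at 36.5, 30.9 and 41.9 in Mock. It was therefore higher in all 3 libraries with doxycycline and lower in all 3 with ZNF683, and the interaction was 4.003 ± 0.32 (limma adjusted p = 7.12e-04). The transcript overlaps FLT3LG and RPL13A on the same strand, so reads among the 3 genes cannot be told apart with certainty. FLT3LG, a growth factor for haematopoietic progenitors, was at 7.30, 6.91 and 6.64 scaled TPM with doxycycline and at 8.203, 9.69 and 8.80 without, and RPL13A, a ribosomal protein gene, overlapped between the groups.

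For AK4, STC2, CHAC1, PRF1 and CD82 the interaction did not pass (adjusted p = 0.939 by limma for each). AK4 had a doxycycline effect of -2.42 ± 0.59 and a ZNF683 effect of -0.09 ± 0.33 log2, with a difference of -2.33 ± 0.74. STC2 had -1.34 ± 0.27 and 0.03 ± 0.20, with a difference of -1.37 ± 0.35, and CHAC1 had -1.37 ± 0.31 and -0.42 ± 0.24. PRF1 was higher in both comparisons, by 1.27 ± 0.34 with doxycycline and 0.82 ± 0.15 with ZNF683 (limma adjusted p = 0.226), as was CD82, by 0.81 ± 0.16 and 0.32 ± 0.11. The differences between the 2 effects, 0.45 ± 0.40 for PRF1 and 0.49 ± 0.19 for CD82, did not pass the test, which does not show that the effects are alike.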

How the data were processed

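The values are TPM that the authors deposited in 1 table for the Dox+ and Dox- libraries and 1 for ZNF683 and Mock. Among tools, kallisto 0.46.0 and DESeq2 1.22.2 are listed in the submitters' processing notes, without saying what each did. Which build and transcripts were used is not given in the sources used here. Because TPM totals are fixed, 1 abundant transcript such as AL135790.1 lowers all others, and depth is lost.

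Libraries were grouped by title. Separate cultures are not stated in the labels, so the p-values reflect the spread among these libraries alone, possibly technical. Genes with a mean TPM of 1 or more over the 6 libraries were kept. TPM was divided by median-of-ratios factors (1.15, 1.15 and 1.13 for Dox+, 0.580, 0.999 and 1.20 for Dox-, from 14852 genes) and tested as log2(scaled TPM + 1) with limma 3.58.1 (R 4.3.3, trend, two-sided, Benjamini-Hochberg). Fold changes on this scale understate the change of low genes. Tested on simulated data for this comparison over 15148 genes, the fit recovered 48% of genes changed by 1 log2 and 94% of those changed by 2, and called 9 unchanged genes. Changes were planted only in genes of higher mean level, with independent normal noise of equal spread in every library. The wider spread of Dox- 2 was not modelled, so these rates need not hold for the libraries compared here. Gene positions and transcripts were matched by symbol to GENCODE v29 (GRCh38), for 14914 of 15148 tested genes. Of 936 symbols on 33 lists 926 were found and 841 tested.

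Members, lists and tests were chosen with earlier results of these data known. Named genes are ZNF683, the 12 genes above and the 12 below in all 3 Dox- libraries with the largest smallest difference (standard symbols, 5 TPM or more in the higher group), the 4 per direction that set each Dox- library apart, up to 4 members of a list by size of difference, and a fixed panel. HBB, of that panel, and COL3A1, of the markers, are not analysed here. Exceptions on a list, list regulators, AC010619.2 with its neighbours and a few list members of well-known function were named after their values were seen. The alternatives were the TPM as deposited, AL135790.1 left out, other scaling, pseudocount, filter and fit settings, the replicate block and each library left out. Library weights for named genes and the removal of genes with A or T runs of 20 or more were added after seeing the data. Deviations of same-numbered libraries from their group means correlated at r = 0.021, 0.061 and 0.356, and those of differently numbered ones at -0.328 to 0.204. Because Dox- 2 weighs heavily on the Dox- means, these values cannot decide whether same-numbered libraries belong together. The labels do not say so, and the main fit left them unpaired.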

Additional observations from a re-analysis of the deposited data

Results flagged for a closer look

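AC010619.2 differed between the comparisons by the interaction test, with a doxycycline effect 4.003 log2 above the effect of ZNF683 over Mock (SE 0.32, limma adjusted p = 7.12e-04). It was higher in 3 of 3 libraries with doxycycline and lower in 3 of 3 with ZNF683. The transcript overlaps FLT3LG and RPL13A on the same strand, and the part of reads shared with them was not tested.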

How the results depend on the processing

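The count of limma calls, 0 as reported, was 60 on the TPM as deposited, 1093 with library weights and 0 with the replicate block (581 at an unadjusted p under 0.05). With each library left out in turn it was 0 to 1, the 1 being AC004079.1 without Dox- 3. No other alternative gave a call. The count for Dox- 1 (326) was 4503 as deposited (4430 lower), 634 with a pseudocount of 0.1, 136 with a mean of 5 TPM or more and 951 at 1.5-fold, and 358 to 408 with 1 Dox+ library left out. For Dox- 2 (3295) it was 1923 with 5 TPM or more and 6796 at 1.5-fold, and 3077 to 3511 with 1 left out. For Dox- 3 (110) it was 295 with a pseudocount of 0.1, 173 with no filter, 30 with 5 TPM or more and 388 at 1.5-fold, and 127 to 154 with 1 left out. Genes on 1 side in all 3 Dox- libraries (1768) numbered 4505 with no filter and 1136 with 5 TPM or more, and 2587 to 5467 with 1 library left out, where fewer libraries separate more easily by construction. Their split was 686 above and 1089 below with AL135790.1 left out and 1039 and 704 with scaling on genes of 10 TPM or more. The interaction called 2 genes as deposited and 1 to 3 with a library left out (3 without Dox- 2, HSPA6 among them). In the other table HSPA6 was at 0.507, 0.385 and 0.631 scaled TPM with ZNF683 and at 7.34, 5.84 and 3.97 in Mock. Of the 58 genes tried, 56 kept the direction of their group difference in every alternative run, which groups that do not overlap fix in part. On the TPM as deposited THEMIS turned to 0.13 and MT-ND6 to 0.02 log2, and the cause was not tested. List medians of amino acid synthesis and of the synthetases also changed sign there, to 0.13 and 0.15 log2. Genes named for 1 Dox- library kept the sign of that library's difference in each alternative tried for them. On the TPM as deposited AK4, ADM, KLF15, PRF1 and AC010619.2 passed limma, and 50 of the 58 passed with library weights. Those weights lean most on Dox+ 2 and Dox- 1.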
